A study of Mus musculus with 27 samples.

Results

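The Cyp2a and Cyp2d families are 2 groups of cytochrome P450 genes, which code for heme enzymes of the endoplasmic reticulum that oxidise steroids, drugs and plant compounds. The 10 genes described here are Cyp2a4, Cyp2a5, Cyp2a12, Cyp2a22, Cyp2d9, Cyp2d10, Cyp2d11, Cyp2d22, Cyp2d26 and Cyp2d40, taken by gene symbol from the 43346 genes of the deposited table. All 10 passed the filter on low counts, as did 14482 genes in all. RNA was sequenced from liver cells labelled as hepatocytes, the main cell type of the liver, of female mice aged 12 weeks. The mice came from 9 inbred strains with 3 libraries each: A/J, 129S1/SvImJ, NZO/HlLtJ, NOD/ShiLtJ, DBA/2J, C57BL/6J, and the wild-derived PWK/PhJ, CAST/EiJ and WSB/EiJ. The strain was the only difference between groups that the labels give, and they name no treatment. The study's design text sets genetic differences between the strains beside their gene expression.

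A cytochrome P450 receives electrons from the reductase encoded by Por, in some reactions by way of cytochrome b5, and inserts an oxygen atom into its substrate. In mouse liver, Cyp2a4 and Cyp2d9 are known as steroid hydroxylases whose expression differs between the sexes, Cyp2a4 being the female-predominant gene and Cyp2d9 the male-predominant one. Cyp2a5 is the coumarin and nicotine hydroxylase, the counterpart of human CYP2A6. The Cyp2d genes of the mouse form a tandem array of close copies, where the human genome holds a single active gene, CYP2D6.

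In the GENCODE M21 annotation (build GRCm38), the 4 Cyp2a genes lie on chromosome 7: Cyp2a4 (ENSMUSG00000074254) at chr7:26307169-26315088 on the plus strand, Cyp2a5 (ENSMUSG00000005547) at chr7:26835305-26843548 on the plus strand, Cyp2a22 (ENSMUSG00000091867) at chr7:26931631-26939384 on the minus strand and Cyp2a12 (ENSMUSG00000060407) at chr7:27029081-27037375 on the plus strand. The 6 Cyp2d genes lie on chromosome 15: Cyp2d22 (ENSMUSG00000061740) at chr15:82370527-82380260, Cyp2d11 (ENSMUSG00000068085) at chr15:82389154-82394022, Cyp2d10 (ENSMUSG00000094806) at chr15:82402846-82407195, Cyp2d9 (ENSMUSG00000068086) at chr15:82433437-82456845, Cyp2d40 (ENSMUSG00000068083) at chr15:82759833-82764183 and Cyp2d26 (ENSMUSG00000022445) at chr15:82790101-82794294. Cyp2d9 is on the plus strand and the other 5 are on the minus strand. All 10 are annotated as protein-coding.

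The upstream sequences of Cyp2a4, Cyp2a5, Cyp2d9, Cyp2d10 and Cyp2d11 are shown because these copies are close in sequence and their strain patterns differed. RefSeq promoters on GRCm38.p6 matched 9 of the 10 genes by symbol, all but Cyp2d22. Each sequence below runs 5′ to 3′ from -250 to -41 relative to the RefSeq start of transcription. The RefSeq start can differ from the GENCODE one, and the Cyp2d9 sequence lies inside the GENCODE span given above, downstream of that annotation's start. Capitals in the Cyp2a genes mark CAAAGTCC, letters of the motif bound by HNF4A, the hepatocyte nuclear receptor.
Cyp2a4, chr7:26306942-26307151, plus strand: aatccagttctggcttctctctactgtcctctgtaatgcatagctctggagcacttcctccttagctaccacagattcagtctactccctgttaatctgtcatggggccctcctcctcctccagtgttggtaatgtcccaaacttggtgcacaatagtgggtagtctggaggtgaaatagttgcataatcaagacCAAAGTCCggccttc
Cyp2a5, chr7:26835089-26835298, plus strand: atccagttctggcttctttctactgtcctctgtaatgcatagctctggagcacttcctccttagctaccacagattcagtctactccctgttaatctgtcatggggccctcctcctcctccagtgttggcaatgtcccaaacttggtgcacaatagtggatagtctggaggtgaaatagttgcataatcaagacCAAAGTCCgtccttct
Both copies held CAAAGTCC, at -55 to -48 in Cyp2a4 and at -56 to -49 in Cyp2a5. On either strand of the 250 bases before the start it occurred in 1.22% of 27018 promoters. The 2 upstream sequences differed at 6 of 211 aligned positions (97.2% identity). Both also held TTGCNNAA, a C/EBP-type motif found in 9.56% of promoters.

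In the Cyp2d genes the capitals mark ACAAAGGGCAA, the longest stretch with CAAAG that the Cyp2d9, Cyp2d10, Cyp2d11 and Cyp2d40 sequences share, and TTCCGG, an ETS-type motif.
Cyp2d9, chr15:82452127-82452336, plus strand: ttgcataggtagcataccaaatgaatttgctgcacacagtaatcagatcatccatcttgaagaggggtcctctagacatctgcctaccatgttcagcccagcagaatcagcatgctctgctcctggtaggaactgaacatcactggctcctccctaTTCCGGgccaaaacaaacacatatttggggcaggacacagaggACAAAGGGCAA
Cyp2d10, chr15:82407235-82407444, minus strand: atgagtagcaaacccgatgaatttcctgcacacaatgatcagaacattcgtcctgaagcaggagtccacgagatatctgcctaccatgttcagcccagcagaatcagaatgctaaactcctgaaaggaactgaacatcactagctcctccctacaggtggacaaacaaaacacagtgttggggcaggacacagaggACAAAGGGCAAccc
Cyp2d11, chr15:82394063-82394272, minus strand: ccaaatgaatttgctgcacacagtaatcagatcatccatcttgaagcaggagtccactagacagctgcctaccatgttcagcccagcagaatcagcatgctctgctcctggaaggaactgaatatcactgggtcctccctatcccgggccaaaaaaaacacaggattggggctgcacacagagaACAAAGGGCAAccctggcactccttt
ACAAAGGGCAA was found at -51 to -41 in Cyp2d9, at -54 to -44 in Cyp2d10, at -66 to -56 in Cyp2d11 and at -114 to -104 in Cyp2d40. It occurred in 7 of 27018 promoters (0.0259%), which include these genes, from which the stretch was taken. Among the 9 genes with a promoter, TTCCGG was found in Cyp2d9 alone, at -94 to -89, and in 12.2% of all promoters. TTCNNNGAA, the STAT5-type motif, was in none of the 9 and in 7.18% of all promoters. These motifs were chosen with the sequences in view, the copies share their ancestry, and a match is a description of the letters, not a shown binding site. Upstream identity was 81.2% between Cyp2d9 and Cyp2d10, 79.7% between Cyp2d9 and Cyp2d11, and 80.8% between Cyp2a12 and Cyp2a22. The Cyp2a12 and Cyp2a22 upstream sequences held none of the capitalised motifs.

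The copies are so alike that reads were divided between them, which limits every level below. The coding parts of Cyp2a4 and Cyp2a5 differ at 23 of 1485 aligned positions (98.5% identity) and those of Cyp2a12 and Cyp2a22 at 45 of 1480 (97.0%). Cyp2d10 and Cyp2d11 were 94.7% identical, Cyp2d9 and Cyp2d11 93.4%, and Cyp2d9 and Cyp2d10 92.5%. The estimated counts of each of the 10 genes were not whole numbers in any of the 27 libraries. The summed counts of Cyp2a4 and Cyp2a5 were whole, within 0.001 counts, in 27 of 27 libraries, and so were those of Cyp2a12 and Cyp2a22. The sum over 9 Cyp2d genes was also whole in 27 of 27 libraries, these being the 6 members with Cyp2d12, Cyp2d34 and Cyp2d41-ps. Division therefore took place within these 3 groups, and their sums do not depend on it. Windows of 100 bases shared exactly with another gene made up 11.2% of the Cyp2a4 transcript, 14.4% of Cyp2a5, 6.83% of Cyp2a12, 6.36% of Cyp2a22, 9.86% of Cyp2d9, 14.8% of Cyp2d10 and 12.2% of Cyp2d11. The share was 0.225% in Cyp2d22, 0.375% in Cyp2d26 and 0% in Cyp2d40. The aligner, and whether it used strain-specific genomes, is not given in the sources used here, and its effect on levels in strains that differ from the C57BL/6J reference was not tested.

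Library totals ran from 17015956 to 35078511 estimated counts, so that 1 count was worth 0.0253 to 0.0516 CPM, the unit of all levels given here, in which each library's counts are divided by its size after TMM scaling. Hepatocyte markers carried the libraries, with a summed level of 127700 to 373500 CPM over 9 genes, against 33.4 to 414.3 CPM for 10 Kupffer cell (liver macrophage) markers and 57.2 to 710.9 CPM for 10 endothelial markers. The defining cholangiocyte genes Krt19, Krt7, Epcam and Cftr reached at most 19 counts in any library, while the other genes of that list reached 196 (Spp1) and 104 (Sox9). The mean log2 CPM of the hepatocyte list was highest in WSB/EiJ (13.06 ± 0.04, SD, n = 3) and lowest in NZO/HlLtJ (12.27 ± 0.11). That of the Kupffer cell list was highest in C57BL/6J (3.90 ± 0.27) and lowest in 129S1/SvImJ (1.74 ± 0.57), and that of the endothelial list ran from 4.94 ± 0.92 in PWK/PhJ to 2.58 ± 0.43 in NZO/HlLtJ. In bulk libraries, fewer hepatocytes and less RNA of a gene per hepatocyte cannot be told apart. The labels call the libraries biological replicates without naming the mice, so p-values measure the spread between these libraries, which may be technical in part.

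All 10 genes differed among the 9 strains in edgeR's quasi-likelihood test with Benjamini-Hochberg adjustment (adjusted p from 6.67e-14 to 0.00125), where 74.2% of all genes tested did. The difference between the highest and the lowest strain mean of log2 CPM had a median of 3.29 over the 10 genes and 1.16 over all genes tested. The fitted log2 difference between the highest and the lowest strain was largest for Cyp2a22 (6.62 ± 0.38, SE) and smallest for Cyp2d26 (1.04 ± 0.20). Of the 36 pairs of strains, between 10 (Cyp2a5 and Cyp2d26) and 29 (Cyp2a22) differed for a gene, with p adjusted over all genes and pairs, and 23.4% of all combinations of gene and pair were called. Per length of the main transcript, the mean level over the 27 libraries was highest for Cyp2a4 (863.7 CPM per kb) and Cyp2d26 (756.7 CPM per kb). Cyp2d10 (572.5), Cyp2a12 (566.6) and Cyp2a5 (474.6 CPM per kb) followed. Cyp2d22 (108.5), Cyp2d9 (91.3), Cyp2d40 (58.3) and Cyp2a22 (57.2 CPM per kb) were lower, and Cyp2d11 was near the detection limit (0.658 CPM per kb). This order differed by strain. By strain means, Cyp2a4 was above Cyp2d26 per kb in A/J, CAST/EiJ and PWK/PhJ, and below it in the other 6 strains, as in C57BL/6J (578.7 against 1018 CPM per kb). In DBA/2J the 2 means were close (839.8 ± 433.6 and 852.2 ± 209.9 CPM per kb, SD, n = 3 each). These differences between genes were not tested.

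**Figure D1:**
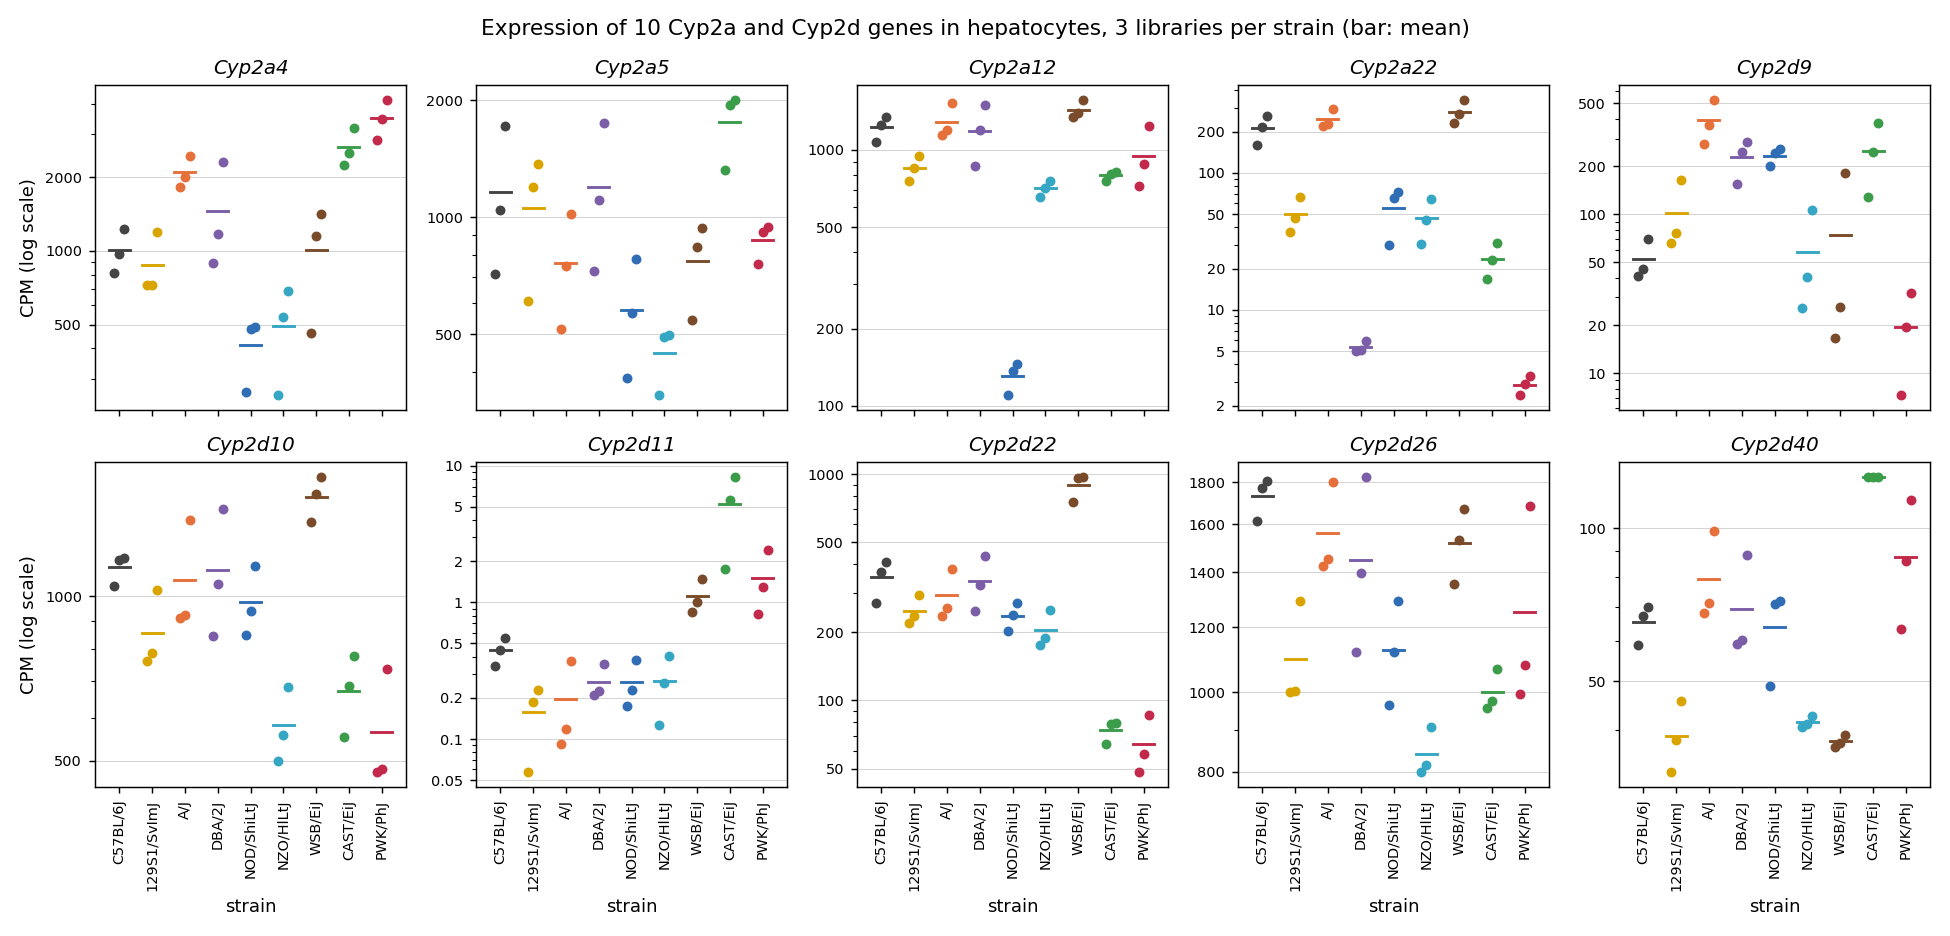
CPM of each gene on a logarithmic y axis against strain on the x axis, where points are libraries (3 per strain) and bars are strain means. NOD/ShiLtJ libraries lie below all others for Cyp2a12, PWK/PhJ below all others for Cyp2a22, and WSB/EiJ above all others for Cyp2d22.

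Cyp2a4, a female-predominant steroid hydroxylase, was most abundant in PWK/PhJ and CAST/EiJ and least in NOD/ShiLtJ and NZO/HlLtJ. Its libraries had 4159, 3482 and 2846 CPM in PWK/PhJ, 2251, 2523 and 3197 CPM in CAST/EiJ and 1834, 2010.4 and 2451 CPM in A/J. They had 535, 688 and 257 CPM in NZO/HlLtJ and 489, 479 and 266 CPM in NOD/ShiLtJ. Every PWK/PhJ, CAST/EiJ and A/J library was above every C57BL/6J library (815, 1229 and 973 CPM), and every NZO/HlLtJ and NOD/ShiLtJ library was below them. DBA/2J (1459 ± 754 CPM, SD, n = 3), WSB/EiJ (1008 ± 491) and 129S1/SvImJ (880.2 ± 271) overlapped with C57BL/6J. PWK/PhJ exceeded NOD/ShiLtJ by 3.09 ± 0.41 (log2, SE; 8.5-fold), with an edgeR adjusted p of 1.43e-06 for the strain effect, and 21 of 36 pairs differed. No strain differed from its neighbour in the order of levels (adjusted p 0.119 or more over all pairs). In WSB/EiJ, replicate 4 had 462 CPM against 1414 and 1147 CPM in replicates 2 and 3. An antisense gene, Gm42375, overlaps Cyp2a4, and the library kit is not stated to keep strand, so their reads cannot be told apart.

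Against C57BL/6J, Cyp2a4 was higher in PWK/PhJ (log2 1.80 ± 0.39, edgeR adjusted p 0.00121) and CAST/EiJ (1.40 ± 0.39, 0.00604) and lower in NOD/ShiLtJ (-1.29 ± 0.39, 0.0247) and NZO/HlLtJ (-1.03 ± 0.38, 0.0457). The 2 lower calls were fragile. The NOD/ShiLtJ call was lost without C57BL/6J replicate 2 (-1.12) or 4 (-1.31), or NOD/ShiLtJ replicate 2 (-1.40) or 3 (-1.05; adjusted p up to 0.126). The NZO/HlLtJ call was lost on leaving out any of 16 of the 27 libraries, most of all NZO/HlLtJ replicate 3 (-0.71, adjusted p 0.188). With the Kupffer cell and endothelial lists as covariates both calls were also lost (-0.46 and -0.13), while the CAST/EiJ value was 2.53. The p-values of this comparison were adjusted over all genes for 1 strain at a time, and those of the 36 pairs over all genes and pairs. With the second adjustment the NZO/HlLtJ difference missed the threshold (0.0543). A/J was above C57BL/6J in all 3 libraries (1.06 ± 0.38), which passed over all genes and pairs (adjusted p 0.0467) and not over genes alone (0.0983).

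Cyp2a5, the coumarin hydroxylase, was the least variable of the Cyp2a genes. It was most abundant in CAST/EiJ, with 1325, 2006 and 1941 CPM, and least in NZO/HlLtJ, with 349, 499 and 492 CPM. C57BL/6J libraries had 712, 1719 and 1044 CPM, a spread that covers most of the range of the other strains. The strain means between them lay between that of NOD/ShiLtJ, 578 ± 198 CPM, and that of DBA/2J, 1193 ± 514 CPM (SD, n = 3 each). CAST/EiJ exceeded NZO/HlLtJ by 1.98 ± 0.37 (log2, SE; edgeR adjusted p of the strain effect 0.00125), and all neighbours in the order overlapped. Against C57BL/6J, NZO/HlLtJ was called lower (-1.37 ± 0.36, adjusted p 0.00673). NOD/ShiLtJ (-1.0 ± 0.36) passed over all genes and pairs (adjusted p 0.0431) and not over genes alone (0.0565). Apart from these 3 comparisons of Cyp2a4 and Cyp2a5, the other 77 of 80 comparisons of the 10 genes with C57BL/6J fell on the same side of the threshold with both adjustments. The NZO/HlLtJ call was lost without C57BL/6J replicate 2, the highest library of that strain (-0.97, adjusted p 0.0645), and with the cell-type lists as covariates (-0.71, 0.407).

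The division of reads between Cyp2a4 and Cyp2a5 differed among strains, so the sum of both is given as well. Together they had 4414 ± 787 CPM in CAST/EiJ and 4368 ± 566 CPM in PWK/PhJ, but 989 ± 310 CPM in NOD/ShiLtJ and 940.3 ± 224 CPM in NZO/HlLtJ (SD, n = 3 each). C57BL/6J had 2164 ± 722 CPM. No library of CAST/EiJ or PWK/PhJ overlapped with NOD/ShiLtJ or NZO/HlLtJ in this sum, which division between the 2 genes cannot change. The pseudogene Cyp2a21-ps shares 100-base windows with both genes and was not analysed here. Whether its reads entered the sum is not known. The Cyp2a4 share of the sum was 79.6% ± 4.72 in PWK/PhJ and 73.7% ± 6.39 in A/J, against 47.8% ± 5.85 in C57BL/6J and 41.7% ± 4.20 in NOD/ShiLtJ. Within WSB/EiJ the share ran from 33.0% to 72.2%, and within NZO/HlLtJ from 34.3% to 60.6%.

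**Figure D2:**
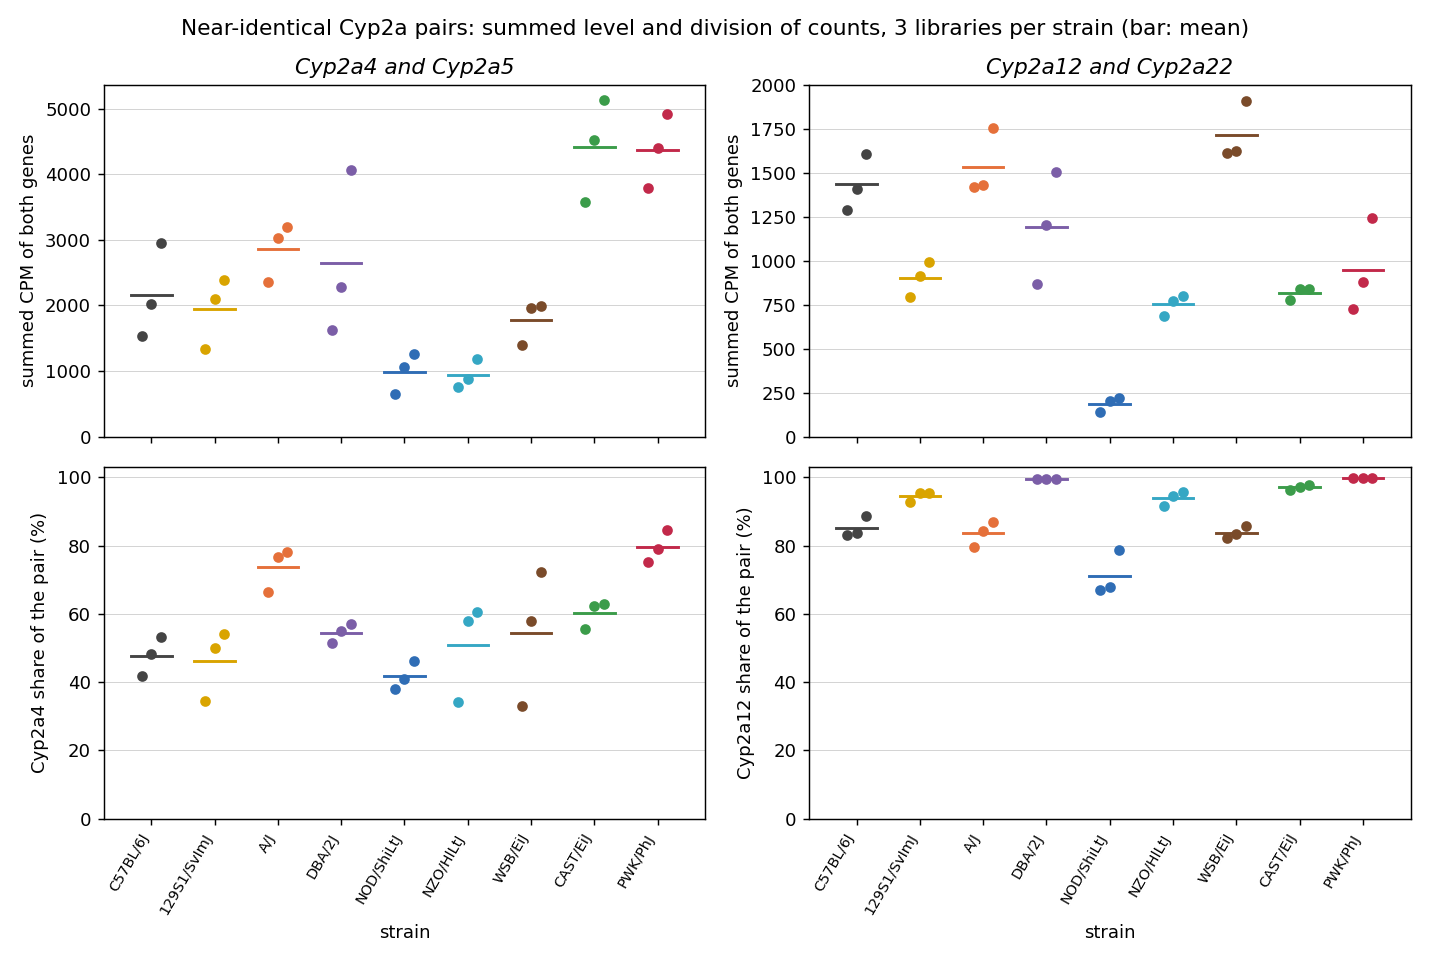
Summed CPM of each near-identical pair (top) and the first gene's percent share of that sum (bottom) by strain, where points are libraries and bars are means of 3. The Cyp2a4 share was highest in PWK/PhJ (79.6%), and the sum of Cyp2a12 and Cyp2a22 was lowest in NOD/ShiLtJ (187 CPM).

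Cyp2a12, another steroid hydroxylase of the liver, was low in a single strain. NOD/ShiLtJ libraries had 146, 137 and 110.3 CPM, below all 24 other libraries, a pattern that 0.49% of all genes tested showed in NOD/ShiLtJ. The next strain up, NZO/HlLtJ, had 658, 709 and 758 CPM, and WSB/EiJ, the highest, had 1347, 1571 and 1395 CPM. C57BL/6J had 1074, 1349.5 and 1252 CPM, and overlapped with A/J (1289 ± 209.6), DBA/2J (1188 ± 319.6) and PWK/PhJ (948 ± 263 CPM, SD, n = 3 each). NZO/HlLtJ exceeded NOD/ShiLtJ by 2.43 (log2, adjusted p 2.94e-09 over all pairs), and this was the single step between neighbours in the order that passed the test. Against C57BL/6J, the level in NOD/ShiLtJ was lower by 9.34-fold (log2 -3.22 ± 0.21, edgeR adjusted p 4.03e-11), from -3.31 to -3.11 on leaving out any library. NZO/HlLtJ (-0.79 ± 0.20, adjusted p 0.00492) and CAST/EiJ (-0.62 ± 0.20, 0.0151) were also called lower. The CAST/EiJ call was lost without C57BL/6J replicate 2 (-0.55) or CAST/EiJ replicate 1 (-0.59), and both were lost with the cell-type lists as covariates (-0.27 and -0.21). The sum of Cyp2a12 and Cyp2a22 was 187 ± 41.3 CPM in NOD/ShiLtJ, and the next lowest strain, NZO/HlLtJ, had 755 ± 59.96 CPM, so the low level in NOD/ShiLtJ did not depend on how reads were divided.

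Cyp2a22, the close copy of Cyp2a12 on the opposite strand, had the widest range of the 10 genes and fell into steps. WSB/EiJ, A/J and C57BL/6J were high, with 267, 343 and 232 CPM, 221, 294 and 227 CPM and 217, 261 and 160.1 CPM. NOD/ShiLtJ (72.1, 65.4 and 29.7 CPM), 129S1/SvImJ (37.1, 66.2 and 47.0 CPM) and NZO/HlLtJ (30.1, 64.5 and 45.0 CPM) lay below them. CAST/EiJ had 16.9, 23.0 and 30.9 CPM, DBA/2J 5.07, 5.93 and 5.04 CPM and PWK/PhJ 3.27, 2.89 and 2.39 CPM. The step from C57BL/6J to NOD/ShiLtJ (log2 1.93, adjusted p 3.92e-05 over all pairs) and that from CAST/EiJ to DBA/2J (2.14, 2.05e-05) passed the test with no overlap. The step from NZO/HlLtJ to CAST/EiJ passed with an overlap of single libraries (0.98, 0.0187), and that from DBA/2J to PWK/PhJ did not pass although their libraries were separate (0.91, 0.0506). PWK/PhJ libraries were below all 24 others, as were those of 2.53% of all genes tested.

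WSB/EiJ exceeded PWK/PhJ for Cyp2a22 by 6.62 ± 0.38 (log2, SE; 98.6-fold), with an edgeR adjusted p of 6.67e-14 for the strain effect. Against C57BL/6J, Cyp2a22 was lower in 6 strains: PWK/PhJ (-6.22 ± 0.38), DBA/2J (-5.32 ± 0.36), CAST/EiJ (-3.18 ± 0.32), NZO/HlLtJ (-2.19 ± 0.31), 129S1/SvImJ (-2.09 ± 0.30) and NOD/ShiLtJ (-1.93 ± 0.30). All 6 calls held in every alternative tried, with adjusted p from 5.1e-12 to 6.61e-05 in the fit reported. In DBA/2J and PWK/PhJ, Cyp2a12 took 99.5% ± 0.102 and 99.7% ± 0.0404 of the counts of the pair, against 85.2% ± 3.00 in C57BL/6J. In NOD/ShiLtJ, where Cyp2a12 was low, its share was 71.1% ± 6.66. DBA/2J had Cyp2a12 near the C57BL/6J level (1188 ± 319.6 against 1225 ± 139.7 CPM), so the 2 copies differed between these strains in 1 gene and not detectably in the other (log2 -0.04 ± 0.20 for Cyp2a12). The summed level of the pair was 1193 ± 320.2 CPM in DBA/2J and 1438 ± 161.6 CPM in C57BL/6J (SD, n = 3 each), with overlapping libraries. The part of read division in the Cyp2a22 difference was not tested. The pseudogene Cyp2a21-ps overlaps Cyp2a22 and was not analysed here.

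Cyp2d9, the steroid hydroxylase known for male-predominant expression, was measurable in all of these female libraries. A/J was highest, with 365, 277 and 526 CPM, and PWK/PhJ lowest, with 31.8, 7.28 and 19.4 CPM. C57BL/6J had 45.5, 41.1 and 70.1 CPM. CAST/EiJ (375, 248 and 128 CPM), NOD/ShiLtJ (201, 256 and 242 CPM) and DBA/2J (156, 284 and 245 CPM) lay between A/J and C57BL/6J with no overlap with the latter. Libraries of 1 strain could differ widely for this gene. WSB/EiJ had 16.6, 25.9 and 181 CPM, and NZO/HlLtJ had 40.3, 25.8 and 107 CPM. A/J exceeded PWK/PhJ by 4.32 ± 0.74 (log2, SE; 20-fold; edgeR adjusted p of the strain effect 0.00013), and no neighbours in the order differed (adjusted p 0.127 or more over all pairs). The pseudogenes Gm46501 and Gm49421 lie within the annotated span on the same strand and Gm49419 on the opposite one, and reads of these and of Cyp2d9 may have been mixed.

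Against C57BL/6J, Cyp2d9 was higher in A/J (log2 2.90 ± 0.69, 7.46-fold, edgeR adjusted p 0.00719), where the call held in every alternative tried (2.62 to 3.17 on leaving out any library). CAST/EiJ (2.26 ± 0.67, 0.0103), NOD/ShiLtJ (2.16 ± 0.67, 0.0306) and DBA/2J (2.13 ± 0.67, 0.047) were called higher with less margin. The CAST/EiJ call was lost without CAST/EiJ replicate 1 (1.85, adjusted p 0.0523). The NOD/ShiLtJ call was lost without any 1 of the C57BL/6J libraries or NOD/ShiLtJ replicate 2 or 3 (2.01 to 2.43, adjusted p up to 0.107), and the DBA/2J call was lost on leaving out any of 16 libraries (1.94 to 2.40, adjusted p up to 0.152). These 3 calls were also lost with the cell-type lists as covariates (1.99, 1.73 and 2.10).

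In 3 strains, WSB/EiJ, NZO/HlLtJ and CAST/EiJ, the library with the lowest Cyp2a4 had the highest Cyp2d9. In 4 strains, 129S1/SvImJ, A/J, DBA/2J and PWK/PhJ, the library with the highest Cyp2a4 had the highest Cyp2d9 as well, as in A/J replicate 3 (2451 and 526 CPM). WSB/EiJ replicate 4 had the lowest Cyp2a4 of its strain (462 CPM) and the highest Cyp2d9 (181 CPM), and NZO/HlLtJ replicate 3 likewise (257 and 107 CPM). Over the 27 deviations from strain means of log2 CPM, Pearson's r between the 2 genes was -0.47, and over the 9 strain means it was -0.05. These values describe libraries that share depth and cell makeup, and they were not tested. The mean log2 CPM of 17 female-predominant liver genes was 6.97 in WSB/EiJ replicate 4 against 7.77 and 7.61 in its strain mates, and in NZO/HlLtJ it was 6.83 in replicate 3 against 6.85 and 7.45. That of 14 male-predominant genes was 3.02 against 3.79 and 3.32 in WSB/EiJ, and 4.06 against 3.56 and 3.20 in NZO/HlLtJ. The Y-linked gene Ddx3y had 0 counts in all 27 libraries. Within strains, r with the female-predominant list was 0.62 for Cyp2a4 and -0.49 for Cyp2d9, and with the male-predominant list it was 0.02 and 0.36. With the Kupffer cell list it was 0.67 for Cyp2a4 and -0.11 for Cyp2d9. The mean log2 CPM of that list was lowest of the strain in WSB/EiJ replicate 4 (2.09 against 2.56 and 2.86) and in NZO/HlLtJ replicate 3 (1.25 against 2.20 and 2.81), and its part in these differences was not tested.

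**Figure D3:**
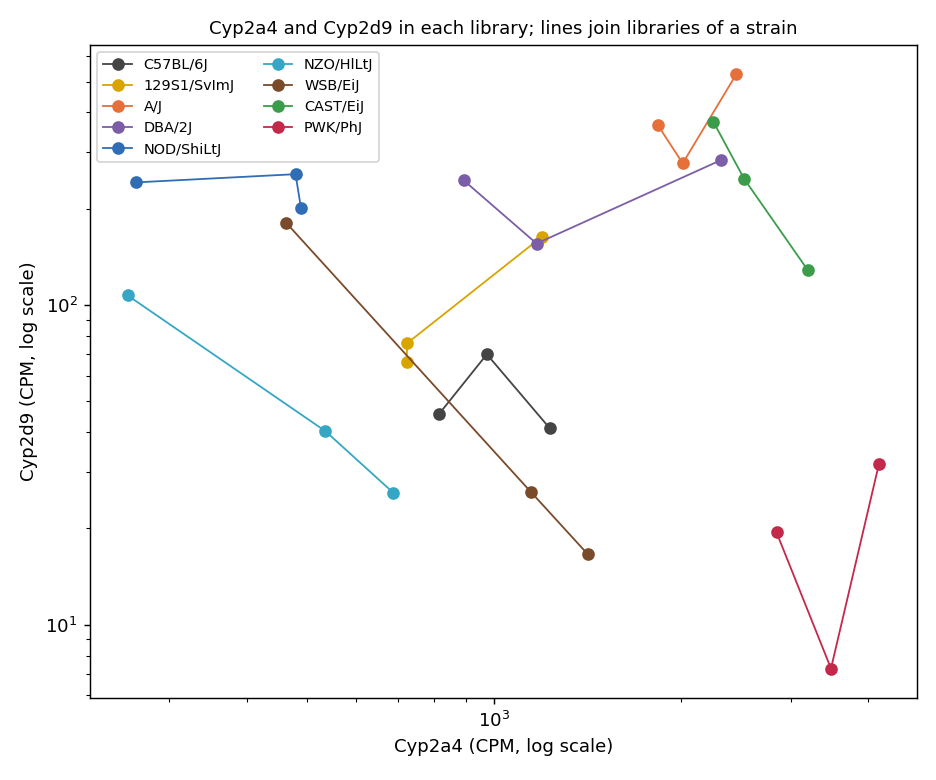
Cyp2d9 against Cyp2a4 in CPM, both axes logarithmic, where each point is a library and lines join the 3 libraries of a strain. WSB/EiJ runs from 1414 and 16.6 CPM at the lower right to 462 and 181 CPM at the upper left, and PWK/PhJ is high in Cyp2a4 with the lowest Cyp2d9.

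Cyp2d10, the most abundant copy next to Cyp2d26, had a narrow range. WSB/EiJ was highest, with 1369.6, 1539 and 1656 CPM, and PWK/PhJ lowest, with 736, 483 and 477 CPM, next to NZO/HlLtJ (558, 499.9 and 684 CPM) and CAST/EiJ (685, 776 and 553 CPM). C57BL/6J libraries, with 1045, 1168 and 1177 CPM, were above every library of these 3 lower strains and below every WSB/EiJ library. The range was 1.43 ± 0.22 (log2, SE; 2.69-fold; edgeR adjusted p of the strain effect 3.27e-05), and no neighbours differed (adjusted p 0.165 or more). Against C57BL/6J, Cyp2d10 was lower in PWK/PhJ (-1.0 ± 0.22, adjusted p 0.00137), NZO/HlLtJ (-0.96 ± 0.22, 0.00258) and CAST/EiJ (-0.75 ± 0.22, 0.00901). The PWK/PhJ call held in every alternative tried. The CAST/EiJ call was lost without CAST/EiJ replicate 5 (-0.63, adjusted p 0.0544), and with the cell-type lists as covariates the CAST/EiJ and NZO/HlLtJ calls were both lost (-0.43 and -0.49).

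Cyp2d11 was scarce. CAST/EiJ had 8.28, 5.59 and 1.75 CPM, PWK/PhJ 2.40, 0.825 and 1.29 CPM and WSB/EiJ 0.843, 1.49 and 1.01 CPM, all above the 0.0572 to 0.547 CPM of the other 6 strains. In those 6 strains the estimated counts ran from 2.28 to 16.0 per library, so their order rests on a handful of reads. Of the 100-base windows of its transcript, 12.2% occur in Cyp2d9, Cyp2d10 or Cyp2d34 as well. The fitted range, CAST/EiJ minus 129S1/SvImJ, was 5.04 ± 0.62 (log2, SE; edgeR adjusted p of the strain effect 2.02e-08), and a value from so few counts depends on the fit. Against C57BL/6J, Cyp2d11 was higher in CAST/EiJ (3.55 ± 0.56, adjusted p 2.42e-05) in every alternative tried, none of which changed how reads were divided. Among its higher strains, the libraries of CAST/EiJ and PWK/PhJ had the same order for Cyp2d11 as for Cyp2d9, and those of WSB/EiJ did not. The part of divided reads in the Cyp2d11 level was not tested. Cyp2d11 was also called higher in PWK/PhJ (1.74 ± 0.55, adjusted p 0.0215), a call lost without PWK/PhJ replicate 1 (1.25, adjusted p 0.115) and without C57BL/6J replicate 1 (1.58) or 2 (1.75).

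Cyp2d22, which has been discussed as a mouse counterpart of CYP2D6 in function, was high in 1 wild-derived strain and low in the others. WSB/EiJ libraries had 756, 965 and 973 CPM, above all 24 others, as did those of 1.65% of all genes tested in WSB/EiJ. CAST/EiJ had 79.9, 78.5 and 64.3 CPM and PWK/PhJ 86.7, 48.2 and 58.0 CPM, both below every library of the other 7 strains. C57BL/6J had 269, 369 and 411 CPM, and the 5 remaining strains had means between that of NZO/HlLtJ, 205 ± 39.8 CPM, and that of DBA/2J, 336 ± 93.6 CPM (SD, n = 3 each). The steps from WSB/EiJ to C57BL/6J (log2 1.36, adjusted p 0.000157 over all pairs) and from NZO/HlLtJ to CAST/EiJ (1.46, 6.99e-05) passed the test, and no step between them did. WSB/EiJ exceeded PWK/PhJ by 3.80 ± 0.26 (log2, SE; 14-fold; edgeR adjusted p of the strain effect 4.88e-11). Against C57BL/6J the values were 1.36 ± 0.24 in WSB/EiJ (adjusted p 0.000208), -2.24 ± 0.25 in CAST/EiJ (1.28e-07) and -2.44 ± 0.25 in PWK/PhJ (4.83e-08), and these 3 calls held in every alternative tried. NZO/HlLtJ was also called lower (-0.77 ± 0.24, adjusted p 0.0177), a call lost without C57BL/6J replicate 2 (-0.73) or 4 (-0.64), without NZO/HlLtJ replicate 1 (-0.67) or 2 (-0.71; adjusted p up to 0.0959), and with the cell-type lists as covariates (-0.24).

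Cyp2d26 had the narrowest range and C57BL/6J at its top. C57BL/6J had 1614, 1774 and 1806 CPM and NZO/HlLtJ 799, 816 and 908 CPM. The NZO/HlLtJ libraries were below all 24 others, as were those of 1.09% of all genes tested. A/J (1560.0 ± 211 CPM), WSB/EiJ (1519 ± 158) and DBA/2J (1449 ± 357 CPM, SD, n = 3 each) overlapped with C57BL/6J. The difference between C57BL/6J and NZO/HlLtJ was 1.04 ± 0.20 (log2, SE; 2.06-fold; edgeR adjusted p of the strain effect 0.000832). No neighbours in the order differed (adjusted p 0.389 or more). Of the 36 pairs 10 were called, and 16 without PWK/PhJ replicate 1, whose 1685 CPM stood above the 1079 and 994 CPM of its strain mates. That library also had the highest summed Kupffer cell (414.3 CPM against 141.7 and 142.4) and endothelial markers (710.9 CPM against 211.7 and 254.4). Its summed hepatocyte markers were the highest of its strain as well (228700 CPM against 172500 and 164300). The part of these cell types in its Cyp2d26 level was not tested. Besides NZO/HlLtJ, CAST/EiJ (-0.79 ± 0.20, adjusted p 0.00277), 129S1/SvImJ (-0.66 ± 0.20, 0.0209) and NOD/ShiLtJ (-0.62 ± 0.20, 0.0331) were called lower than C57BL/6J. The 129S1/SvImJ call was lost without C57BL/6J replicate 2 or 4 or 129S1/SvImJ replicate 1 or 2 (-0.64 to -0.59), and the NOD/ShiLtJ call without C57BL/6J replicate 2 or 4 or NOD/ShiLtJ replicate 1 or 3 (-0.62 to -0.52), and with no filter on low counts (adjusted p 0.0616). With the cell-type lists as covariates all 4 were lost, NZO/HlLtJ at -0.51 (adjusted p 0.0834) and CAST/EiJ at -0.39.

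Cyp2d40, the member with the shortest annotated coding part (1017 bases), shared no 100-base window with another gene. Its estimated counts were still not whole in any of the 27 libraries. CAST/EiJ had 126, 126 and 126 CPM, above all 24 other libraries, as did 5.25% of all genes tested in CAST/EiJ. WSB/EiJ (37.1, 39.1 and 37.8 CPM), 129S1/SvImJ (33.1, 38.2 and 45.6 CPM) and NZO/HlLtJ (40.6, 42.7 and 41.2 CPM) were lowest, and all 9 of these libraries were below every library of the 6 remaining strains. C57BL/6J had 58.9, 67.3 and 69.9 CPM and PWK/PhJ 114, 86.1 and 63.3 CPM. CAST/EiJ exceeded WSB/EiJ by 1.73 ± 0.20 (log2, SE; 3.31-fold; edgeR adjusted p of the strain effect 2.18e-07). The step from NOD/ShiLtJ to NZO/HlLtJ was the single one between neighbours that passed the test (0.62, adjusted p 0.0221 over all pairs). Against C57BL/6J, Cyp2d40 was higher in CAST/EiJ (0.95 ± 0.20, adjusted p 0.000509) in every alternative tried. It was called lower in WSB/EiJ (-0.78 ± 0.20, 0.00709), 129S1/SvImJ (-0.75 ± 0.20, 0.00939) and NZO/HlLtJ (-0.66 ± 0.19, 0.015). The 129S1/SvImJ call was lost without 129S1/SvImJ replicate 1 (-0.64), the NZO/HlLtJ call without C57BL/6J replicate 4 (-0.60) or NZO/HlLtJ replicate 1 (-0.64), and with the cell-type lists as covariates all 3 were lost (-0.53, -0.40 and -0.23). WSB/EiJ was thus the highest strain for Cyp2d22 and the lowest for Cyp2d40, while CAST/EiJ was at or near the opposite end for both.

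Since reads were divided among the Cyp2d copies, their summed level is given too. The 9 Cyp2d genes together had 4060 ± 454 CPM in WSB/EiJ, 3334 ± 264.5 CPM in C57BL/6J and 1729 ± 230 CPM in NZO/HlLtJ (SD, n = 3 each). CAST/EiJ (2171 ± 255) and PWK/PhJ (1996 ± 579 CPM) were also low. The other measured family genes, Cyp2d12, Cyp2d34, Cyp2d37-ps and Cyp2d41-ps, all differed among strains (4 of 4 tested, against 74.2% of all genes tested). Cyp2d12 (13.7 ± 7.08 CPM), Cyp2d34 (6.63 ± 1.36 CPM) and Cyp2d41-ps (22.9 ± 4.39 CPM) were highest in CAST/EiJ, as Cyp2d11 and Cyp2d40 were. Cyp2d37-ps, a transcribed pseudogene with whole counts throughout, was highest in A/J (17.4 ± 3.33 CPM) and lowest in PWK/PhJ (3.03 ± 0.689 CPM).

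Counted over the 10 genes, NZO/HlLtJ differed most evenly from C57BL/6J, with 8 genes lower and 0 higher, where 16.2% of all genes tested were lower and 13.2% higher. The median log2 difference of the 10 genes in NZO/HlLtJ was -0.88, against 0.01 for all genes tested. In CAST/EiJ, 4 genes were higher (18.4% of all genes) and 5 lower (19.7%). In PWK/PhJ, 2 were higher (12.5%) and 3 lower (13.7%), and in NOD/ShiLtJ 1 was higher (7.39%) and 4 lower (8.51%). In 129S1/SvImJ, 0 were higher (9.2%) and 3 lower (11.7%). WSB/EiJ had 1 higher (6.88%) and 1 lower (6.76%), DBA/2J 1 higher (4.9%) and 1 lower (4.16%), and A/J 1 higher (3.81%) and 0 lower (4.03%). These 8 comparisons share the 3 C57BL/6J libraries, so a library of that strain moves all of them. Leaving out 1 library moved several counts by over 1.5 times. The lower count in NZO/HlLtJ was 5 without C57BL/6J replicate 2 or 4 or NZO/HlLtJ replicate 1. In NOD/ShiLtJ the lower count was 2 without C57BL/6J replicate 2 or 4 or NOD/ShiLtJ replicate 3, and the higher count was 0 without any 1 of the 3 C57BL/6J libraries or NOD/ShiLtJ replicate 2 or 3. In 129S1/SvImJ 1 was lower without 129S1/SvImJ replicate 1. In PWK/PhJ 5 were lower without PWK/PhJ replicate 1, and 1 was higher without that library or C57BL/6J replicate 1 or 2. The higher count in DBA/2J was 0 without any of 16 of the 27 libraries. With the Kupffer cell and endothelial lists as covariates, 6 were lower in PWK/PhJ, 4 were higher in WSB/EiJ, and 2 were lower in NOD/ShiLtJ and in CAST/EiJ. Of the 35 calls, 16 held in every alternative tried, and 21 held on leaving out each library in turn. The Kupffer cell list was highest in C57BL/6J, and with that list and the endothelial list as covariates 7 of the 8 lower calls in NZO/HlLtJ were lost, Cyp2a22 being the exception (log2 -1.73, adjusted p 0.00582). NZO/HlLtJ also had the lowest hepatocyte and endothelial list means, and their part in its lower levels was not tested further.

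**Figure D4:**
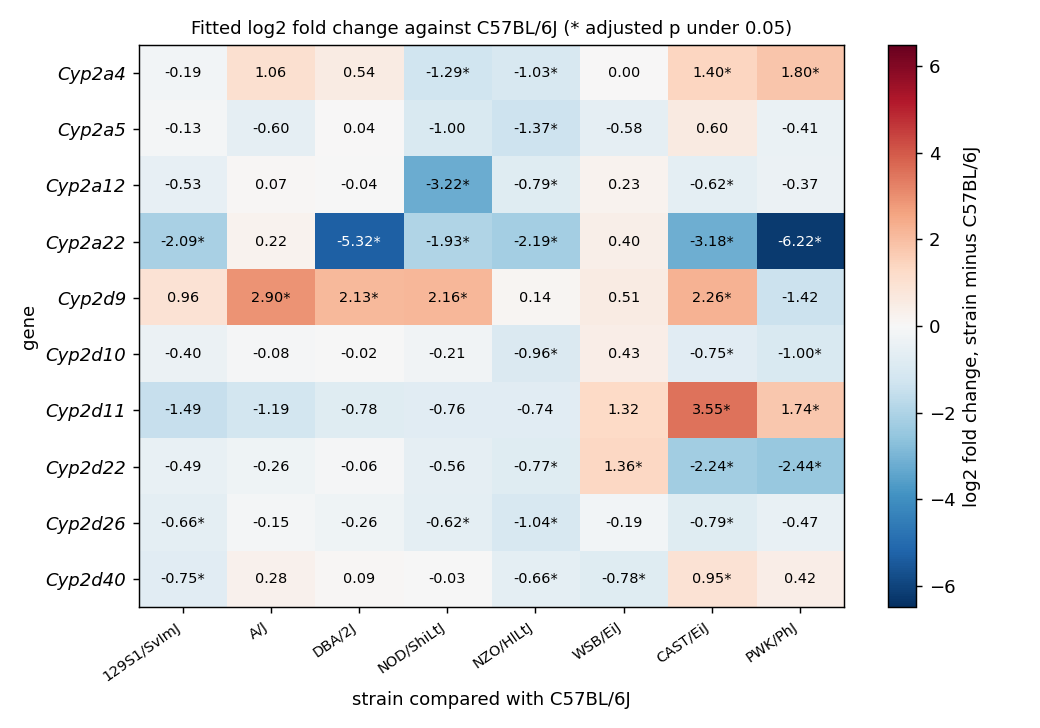
Fitted log2 fold change of each gene (rows) in each of 8 strains (columns) against C57BL/6J, by colour and number, with an asterisk where the adjusted p was under 0.05. NZO/HlLtJ has 8 genes lower, and the extremes are Cyp2a22 in PWK/PhJ (-6.22) and Cyp2d11 in CAST/EiJ (3.55).

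Within strains, 5 of the genes rose and fell together from library to library. Pearson's r of the deviations from strain means of log2 CPM, over 27 libraries, was 0.73 to 0.93 for every pair among Cyp2a12, Cyp2d10, Cyp2d22, Cyp2d26 and Cyp2d40. Their r with the mean of the hepatocyte markers was 0.73 to 0.85, while it was 0.30 for Cyp2a4, 0.39 for Cyp2a5, 0.47 for Cyp2d9, 0.22 for Cyp2d11 and 0.00 for Cyp2a22. With the endothelial list r was 0.58 to 0.80 for the 5 genes and 0.16 to 0.48 for the others. With the Kupffer cell list it was 0.40 to 0.61 for the 5 genes and -0.11 to 0.67 for the others, Cyp2a4 being the highest. Over the 9 strain means the same 5 genes did not form a group, with r from -0.68 (Cyp2d22 and Cyp2d40) to 0.88 (Cyp2d10 and Cyp2d22). These are descriptions of libraries that share depth, scaling and cell makeup.

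Of a list of genes of electron transfer and of heme supply or breakdown, 8 of 8 differed among strains, where 74.2% of all genes tested did (median range 1.20 on the log2 scale, against 1.16 for all genes). Por, the reductase that feeds every microsomal P450, ran from 617 ± 83.0 CPM in C57BL/6J to 288 ± 62.3 CPM in NZO/HlLtJ (SD, n = 3 each; edgeR adjusted p 0.0115), the same ends as Cyp2d26. Cyb5b, an outer mitochondrial cytochrome b5, was highest in NZO/HlLtJ (368 ± 26.4 CPM) and lowest in A/J, at 153 ± 35.5 CPM (adjusted p 1.4e-05). Cyb5r3, a cytochrome b5 reductase, was highest in DBA/2J (355 ± 59.4 CPM) and lowest in A/J (174 ± 22.2 CPM). Hmox1, which breaks heme down, was highest in A/J (13.2 ± 2.61 CPM) and lowest in 129S1/SvImJ (3.65 ± 1.04 CPM).

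Of 24 genes known as regulators of these P450 genes or of liver sex differences, 18 differed among strains, a share of 75% against 74.2% of all genes. Hnf4a did not pass the test (highest in CAST/EiJ, at 428 ± 58.7 CPM, and lowest in A/J, at 268 ± 18.0 CPM; edgeR adjusted p 0.0524). Nr1i3, which encodes the xenobiotic receptor CAR, was highest in C57BL/6J (261 ± 50.6 CPM) and lowest in PWK/PhJ (112 ± 28.2 CPM, adjusted p 0.000321). Nfe2l2, the oxidative stress factor known to act on Cyp2a5, ran from 61.6 ± 10.7 CPM in WSB/EiJ to 33.7 ± 4.74 CPM in NZO/HlLtJ (adjusted p 0.000802). The aryl hydrocarbon receptor gene Ahr was highest in CAST/EiJ (31.8 ± 2.60 CPM) and lowest in WSB/EiJ (13.3 ± 0.789 CPM). Rsl1, a zinc finger repressor of male-type genes including Cyp2d9 in female liver, was at the edge of detection, at 1.27 ± 0.722 CPM in CAST/EiJ, its highest strain, and 0.214 ± 0.0146 CPM in WSB/EiJ, its lowest (adjusted p 0.000885).

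Genes with sex-biased expression in liver were the most variable of the lists. All 17 female-predominant genes (median range 4.96) and all 14 male-predominant genes (5.80) differed among strains, against 74.2% of all genes tested and a median range of 1.16 over all genes. Cyp2b13 ran from 531 ± 207 CPM in DBA/2J to 2.54 ± 0.879 CPM in 129S1/SvImJ, and Cyp2b9, its neighbour in the Cyp2b family, from 1543 ± 66.5 CPM in WSB/EiJ to 2.49 ± 0.552 CPM in 129S1/SvImJ. Sult3a1, a sulfotransferase gene, was highest in CAST/EiJ (1825 ± 141 CPM) and lowest in A/J (23.4 ± 6.11 CPM). Among male-predominant genes, C4a was highest in CAST/EiJ (206 ± 21.3 CPM) and lowest in PWK/PhJ (5.78 ± 2.15 CPM). Cyp4a12b, a fatty acid hydroxylase, was highest in PWK/PhJ (198 ± 113 CPM) and lowest in NOD/ShiLtJ (0.0873 ± 0.122 CPM), and Cyp7b1, an oxysterol hydroxylase, was highest in PWK/PhJ (864 ± 78.8 CPM) and lowest in 129S1/SvImJ (38.3 ± 10.9 CPM). PWK/PhJ, the lowest strain for Cyp2d9, had the highest mean of the male-predominant list (4.37 ± 0.47 on the log2 scale), though its members did not share 1 strain order.

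The genes whose levels were most like each member were sought among 6098 named genes averaging at least 10 CPM, by Pearson's r of log2 CPM over the 27 libraries. Cyp2a12 was most like Sdc2 (r = 0.98), B4galnt1 (0.96) and Abcb1a (0.94). Cyp2d22 was most like Cers2 (0.95), Itga7 (0.93) and Cd1d1 (0.93), Cyp2d26 most like Derl1 (0.94), Tpra1 (0.94) and Col18a1 (0.92), and Cyp2d10 most like Glmp (0.93), Slc27a4 (0.92) and Clu (0.91). Cyp2a4 was most like Cyp3a44, a female-predominant P450 gene (0.87), then Mfsd8 and Tnfrsf1a (0.80 each). For Cyp2d40 they were Manba (0.87), Sel1l3 (0.82) and Hlcs (0.78), and for Cyp2d11 Ric8a (0.86), Prkcz (0.84) and Fetub (0.82). Cyp2a22 was most like Tenm3 (0.84), Mpdu1 (0.84) and F5 (0.82), Cyp2d9 most like Ankrd27 (0.81), Tmem8 (0.80) and Cd9 (0.75), and Cyp2a5 most like Tnfrsf1a (0.70), Sbk1 (0.69) and Tns2 (0.68). With 3 libraries of each strain, these values describe likeness over 9 strain patterns, chosen as the highest of many.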

How the data were processed

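Per the labels' protocols, polyadenylated RNA was made into libraries with the TruSeq RNA kit v2. The authors deposited a table of estimated counts (expected counts), of which 14.7% were not whole, without scaling to depth. The submitters' processing notes name GRCm38, mm10, FastQC 0.11.5 and DESeq2; the aligner and counter are not given in the sources used here. GENCODE M21 named 42462 of the 43346 gene IDs. Counts were rounded, which changed library totals by at most 0.00026%, and edgeR 4.0.16, with limma 3.58.1 under R 4.3.3, was used for all tests: filterByExpr by strain, TMM factors (0.722 to 1.226), and 1 quasi-likelihood fit to all 27 libraries with strain as the factor. P-values were adjusted by Benjamini and Hochberg over all genes, and for pairs of strains over all genes and pairs, and called under 0.05. The analysis was tested on simulated data. Log2 CPM used a prior count of 2. Alternatives are in the closing section.

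The genes and lists were chosen with earlier results of these data known. Named genes were the 10 members, the measured family genes, up to 3 genes with the largest F of each list, Rsl1, Por, Hnf4a, Nr1i3 and Nfe2l2, and the 3 genes most like each member; Cyp2d13, Cyp2a20-ps and Cyp2a21-ps were not analysed here. Stellate (6 of 8 tested genes called), lymphocyte (1 of 1) and erythroid (1 of 3) marker lists were also run, as were cholangiocyte (2 of 2), hepatocyte (7 of 9), Kupffer cell (10 of 10) and endothelial (10 of 10) lists. Of all genes tested, 74.2% were called. Sequences were compared with edlib 1.3.9.post1. Replicate numbers did not pair the libraries. Intervals were not computed, and 3 libraries per strain limit the precision.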

Additional observations from a re-analysis of the deposited data

How the results depend on the processing

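The 10 genes differed among strains under every alternative tried (adjusted p at most 0.00524), and no value reversed. Pairs of strains called over the 10 genes were 185 in the reported fit, 173 to 194 without 1 library, 196 with DESeq2 1.42.0, 172 with a replicate block and 177 with the means of the Kupffer cell and endothelial lists as covariates. List genes called were 60 (58 to 63 without 1 library). Calls against C57BL/6J were 35 in all: 25 to 37 without 1 library, 37 with DESeq2, 34 with the replicate block and 25 with the covariates. The replicate numbers share no pairing (mean correlation of deviations 0.01 for the same number and -0.003 for different numbers, 7 of 27 libraries closest to their own number). With the replicate block, 3 genes in place of 5 were lower in CAST/EiJ, the calls lost being Cyp2a12 (-0.62, adjusted p 0.0643) and Cyp2d10 (-0.65, 0.059). A/J had 2 genes higher with no filter on low counts, with the covariates and in a fit on 6 libraries. With the covariates, genes lower were 1 in 129S1/SvImJ, 2 in NOD/ShiLtJ, 1 in NZO/HlLtJ, 0 in WSB/EiJ, 2 in CAST/EiJ and 6 in PWK/PhJ, and genes higher were 0 in NOD/ShiLtJ and 4 in WSB/EiJ; the cause was not tested. Without 1 library, genes higher were 0 to 1 in DBA/2J, 0 to 1 in NOD/ShiLtJ, 3 to 4 in CAST/EiJ and 1 to 3 in PWK/PhJ, and genes lower were 1 to 4 in 129S1/SvImJ, 2 to 6 in NOD/ShiLtJ, 5 to 8 in NZO/HlLtJ, 4 to 5 in CAST/EiJ and 3 to 5 in PWK/PhJ. Of the 35 calls against C57BL/6J, 19 were lost under 1 or more alternatives, 14 without 1 library and 18 with the covariates. Cyp2d11 had the fewest counts of the 10 genes, at 2.28 to 16.0 estimated counts per library in 6 strains. No alternative varied depth.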
